A study of Mus musculus with 12 samples.

Results

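The Rab GTPases of membrane traffic were followed through 12 messenger RNA libraries from mouse keratinocytes, cultured cells of the kind that builds the epidermis. Members were all protein-coding genes of the deposited count table whose symbol was Rab, a number and at most 1 further letter, which gave 59 of 54532 genes. At least 1 count was found for 50 of them, and 45 passed the filter on low counts and were tested among 13571 genes. Rab proteins are small GTPases that switch between a GDP-bound form held in the cytosol and a GTP-bound form on membranes, where they recruit motors, tethers and fusion factors. Each compartment of the endocytic and secretory pathways carries its own set of Rabs. In keratinocytes this traffic moves adhesion proteins and receptors to and from the cell border.

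All cells had the wild-type genotype and carried a fusion of residues 1 to 584 of desmoplakin (DP), which links desmosomes to keratin filaments, with the biotin ligase BirA. Confluent cells received calcium, to start differentiation, together with doxycycline at 2 µg/mL, to express the fusion. The labels give the calcium as 1.2 µM, and whether that unit is right could not be checked here. They were scratch wounded or left unwounded, and biotin was then supplied for 16 h. Translating material from a sucrose gradient was passed over neutravidin, which holds biotinylated material. RNA on the resin is the cortical fraction and RNA left after depletion is the total fraction, which is therefore not an untouched input. Each fraction of unwounded and of wounded cells gave 3 libraries (4 groups), named as biological replicates with no word on how the cultures were separated, so p-values measure the spread between these libraries. Every group carried the same fusion protein, the promoter behind it was not given in the sources used here, and no library without the fusion or without biotin was analysed here.

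Libraries held 8980013 to 23457548 counts. Wounded total replicate 1 stood apart: 39.3% of the genes expected at 10 to 20 counts were at 0 there, against 0.912% to 13.7% in the other 11 libraries. All 10 keratinocyte markers had counts in some library, but their summed level moved with the groups. It went from 4094 to 4765 FPKM in unwounded total libraries to 9218 to 9418 FPKM in wounded cortical ones. FPKM is counts per kilobase of gene, divided by an effective size of each library that was 0.825 to 1.10 of its total count. The part of this marker shift in the Rab results was not tested. Krt5 (1645 to 3431 FPKM) and Krt14 (2345 to 6234 FPKM) were by far the highest of these markers, while Krt1 ran from 0 to 0.415 FPKM. Summed markers of melanocytes reached at most 2.28 FPKM, those of fibroblasts 0.679 FPKM and those of leukocytes 0.184 FPKM, with Tyr, Tyrp1, Dcn, Cd207 and Lyz2 at 0 counts. In bulk RNA, fewer cells of a type and less RNA per cell cannot be told apart.

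Rab proteins are anchored in membranes by prenyl groups attached to cysteines at their carboxyl end. The last 30 coding bases are shown for 9 of the 16 members whose mRNA changed in some comparison, because this end holds both the part that anchors the protein and the differences among closely related Rabs. Capitals mark cysteine codons within the last 6 codons, and the stop codon is left out. Sequences are from the GENCODE M21 transcripts on GRCm38, 5′ to 3′ on the coding strand, and each stretch lies in 1 exon. The first 5 have 2 cysteine codons within these last 6 codons, in 4 arrangements.
Rab25: ggggaaaagagggccTGTTGCatcagcctc
Rab24: aacccttacttctacagcTGTTGTcatcac
Rab7: gccaaggcctccgcagaaagcTGCagtTGT
Rab31: cagagcttgcaagccagccgtcggTGCTGC
Rab35: aaaaacagtaaacgaaagaaacgcTGCTGC
The next 4 have 1 cysteine codon, at the same place, 4 codons before the stop.
Rab8a: aggaccagcttcttccggTGCagtctcctg
Rab13: gacaagaagaagaacaagTGCttgttaggc
Rab23: agaaaccctttcagcagcTGTagtgtaccc
Rab28: cctcctcggagctccatgTGTgcagtgcag
On GRCm38 these stretches lie at chr3:88542246-88542275 on the minus strand (Rab25), chr13:55320153-55320182 on the minus strand (Rab24) and chr6:88000438-88000467 on the minus strand (Rab7). Rab31 lies at chr17:65654409-65654438 on the minus strand, Rab35 at chr5:115645729-115645758 on the plus strand and Rab8a at chr8:72180105-72180134 on the plus strand. Rab13 lies at chr3:90225551-90225580 on the plus strand, Rab23 at chr1:33739360-33739389 on the plus strand and Rab28 at chr5:41625773-41625802 on the minus strand. Among all 59 members, 50 had 2 cysteine codons in this window and 9 had 1.

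Expression was concentrated in a few Rabs. Mean levels over the 4 groups were above 10 FPKM for 23 members, between 1 and 10 FPKM for 14 and lower for 22. Rab25, an epithelial relative of Rab11 on recycling endosomes, was the most abundant, with group means of 299.9 ± 4.99 FPKM in unwounded total, 218.5 ± 8.79 in unwounded cortical, 318.6 ± 40.8 in wounded total and 258.4 ± 7.77 in wounded cortical cells (SD, n = 3). It alone made up 22.1% of the summed Rab FPKM. Next came Rab2a, of traffic between the endoplasmic reticulum (ER) and the Golgi, at a mean of 113.9 FPKM, and Rab5c, of early endosomes, at 89.2 FPKM. Rab15, of endosomal recycling, had 80.4 FPKM and Rab7, which drives late endosomes towards lysosomes, 76.5 FPKM. These 5 members held 51.1% of the summed Rab level and the first 10 held 72.7%. The ranking crosses roles, since Rab25 and Rab15 work in recycling, Rab5c at the early endosome, Rab7 late in the endocytic route and Rab2a early in secretion.

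**Figure D1:**
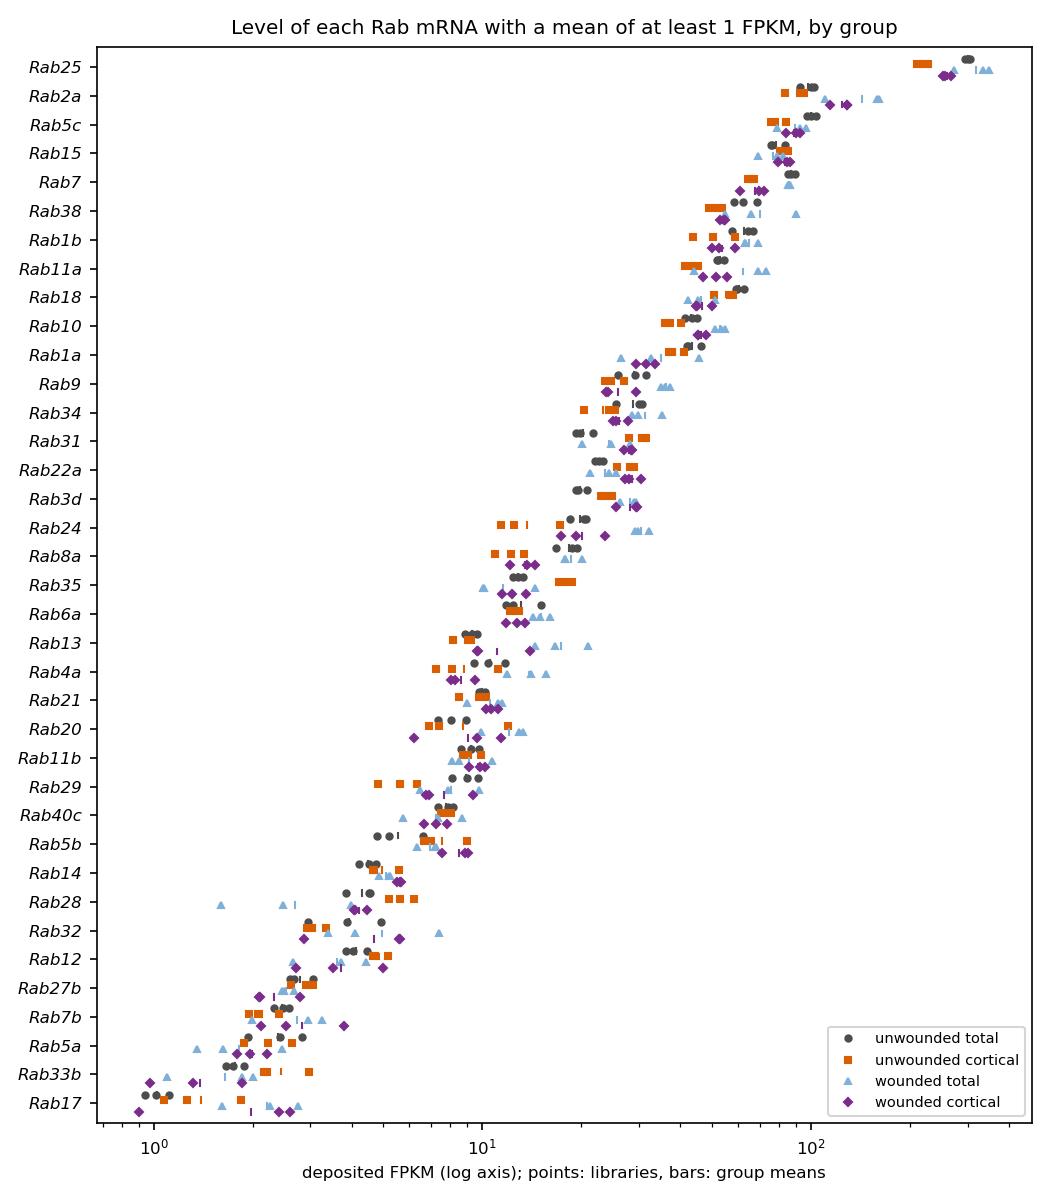
Deposited FPKM (log axis) of each Rab with a mean of at least 1 FPKM, ordered by that mean, with a point per library and a bar per group mean. Rab25 lies to the right of every other Rab in all 4 groups, and the unwounded cortical libraries of Rab25 are its lowest.

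Paralogs that share a role differed widely in level. Rab5c had a mean of 89.2 FPKM, against 7.12 FPKM for Rab5b and 2.11 FPKM for Rab5a, the other early endosomal Rab5 proteins. Rab8a had 15.6 FPKM and Rab8b 0.883 FPKM, although both carry cargo towards the plasma membrane. Rab11a had 52.4 FPKM and Rab11b 9.30 FPKM, both below their relative Rab25. Within the Rab2 pair, Rab2b never exceeded 9 counts in a library, and in the Rab27 pair, known from secretory granules and melanosomes, Rab27b had 2.63 FPKM and Rab27a 0.0940 FPKM. Rab38, best known from melanosomes, stood at 59.7 FPKM. Of 7 melanocyte markers, Tyr and Tyrp1 had 0 counts in every library and 5 had counts, Mitf at up to 1.48 FPKM, Mlana at up to 1.06 FPKM and Pmel at up to 0.996 FPKM; their sum was 0.457 to 2.28 FPKM, and their part in the Rab38 level was not tested. Rab27a, Rab33a, Rab2b, Rab39b and Rab26 were counted but did not pass the filter. Rab9b, Rab42, Rab19, Rab43, Rab36, Rab39, Rab6b, Rab40b and Rab3c had 0 counts in all 12 libraries.

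The summed Rab level was lower in the cortical than in the total fraction in the deposited FPKM, but not under every scaling. It was 1274 ± 19.0 FPKM in unwounded total and 1100 ± 16.4 FPKM in unwounded cortical cells, a ratio of 0.863, and the 3 libraries of each group did not overlap (SD, n = 3). In wounded cells it was 1379 ± 75.4 FPKM in the total and 1205 ± 29.6 FPKM in the cortical fraction, a ratio of 0.874, again with no overlap. Per kilobase and scaled to the total count of each library, an alternative chosen after seeing the data, the sums overlapped between fractions. They were 1245 ± 38.4 and 1206 ± 16.5 in the unwounded total and cortical libraries and 1243 ± 99.0 and 1290 ± 41.5 in the wounded ones (SD, n = 3), ratios of 0.969 and 1.04. As a percentage of all counts, the Rabs made up 0.333% and 0.341% of the unwounded total and cortical libraries and 0.328% and 0.356% of the wounded ones, ratios of 1.02 and 1.09.

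In unwounded cells, Rab7, Rab8a, Rab24, Rab25, Rab5c and Rab29 were lower in the cortical fraction, and Rab31 and Rab35 were higher. These were 8 of 45 tested members at an adjusted p under 0.05, beside 14.2% of all genes tested; the 6 lower ones stand beside 7.59% of genes and the 2 higher ones beside 6.62%. The median log2 difference over the tested members was -0.14, against 0.0023 over all genes, and 31 of the 45 were negative. With library size alone as the scaling, which moved the median of all genes to 0.19, the median of the Rabs was 0.05 and 5 members were higher and 1 lower, beside 15.1% of all genes (1582 higher and 469 lower). The 3 libraries of each group did not overlap for 13 lower and 7 higher members, beside 19.1% and 17.1% of all genes (36.2% in all). By role, all 3 called late endosomal and lysosomal members of 9 tested were lower. Early endosomal members were split, with Rab5c lower and Rab31 higher among 6, and so were recycling members, with Rab25 lower and Rab35 higher among 9. Of the secretory members only Rab8a was called among 9. Of 8 ER and Golgi members edgeR called 0, with 2 at an unadjusted p under 0.05. DESeq2 also called 0 of these, beside 16.4% of all genes. The limma-voom fit with library weights called Rab1b and Rab34 lower, beside 27.3% of all genes (1775 higher and 1933 lower).

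**Figure D2:**
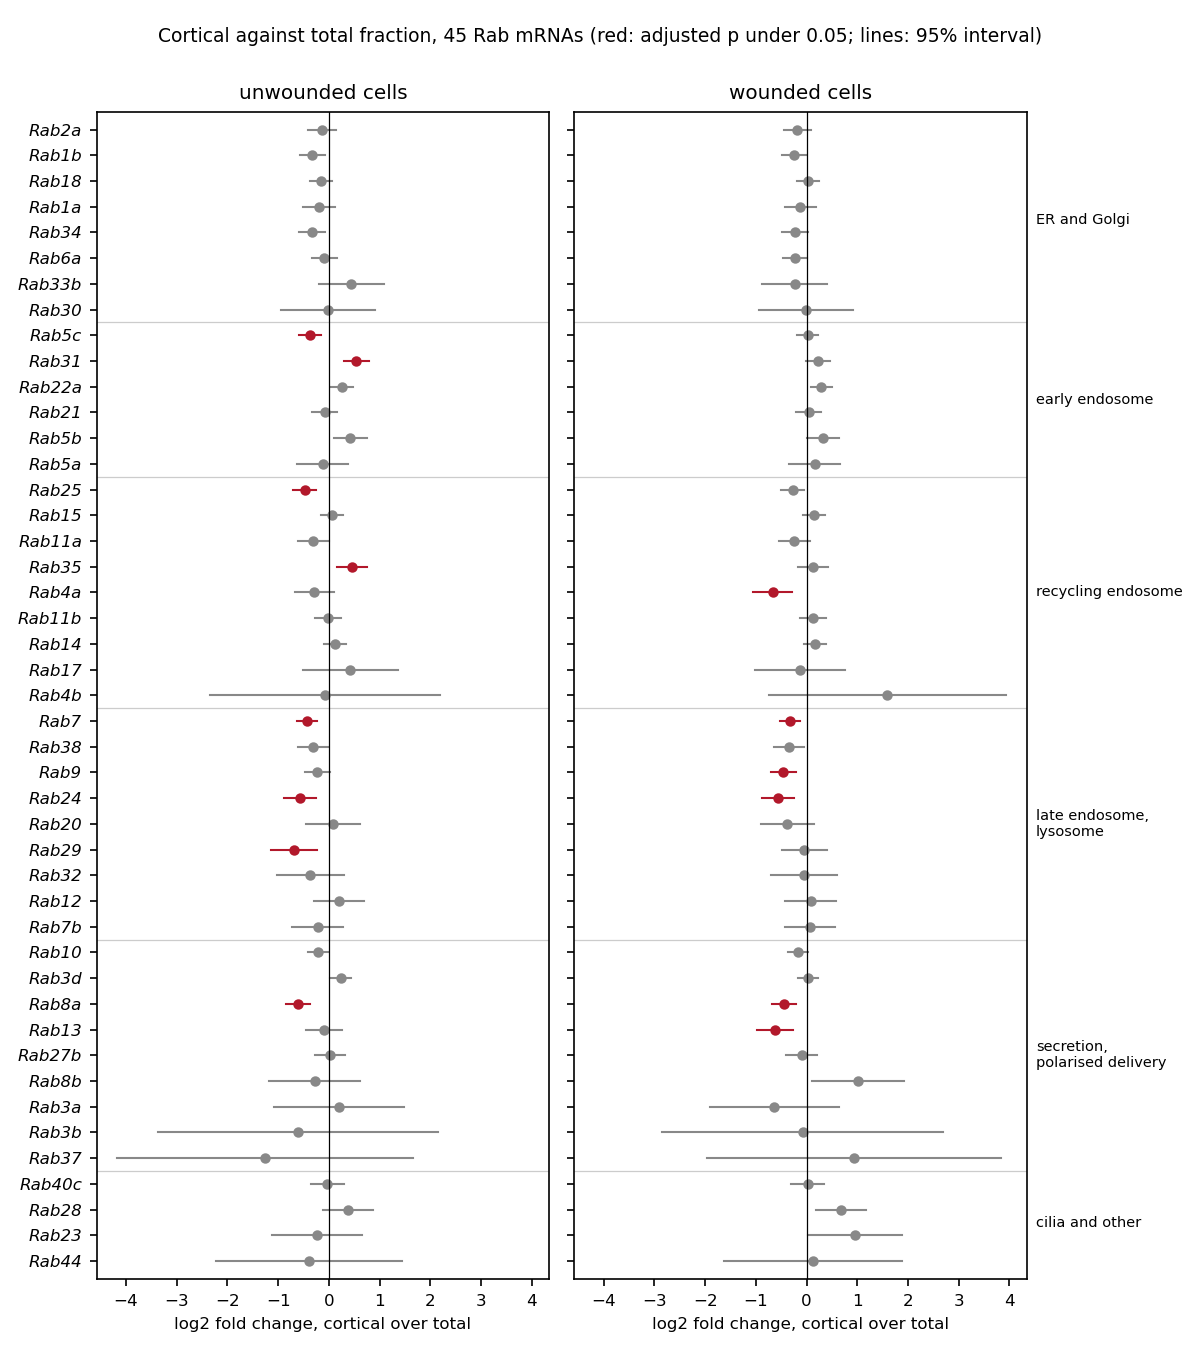
Log2 fold change of the cortical over the total fraction for the 45 tested Rabs in unwounded and wounded cells, grouped by role, with 95% intervals; red marks an adjusted p under 0.05. Rab7, Rab24 and Rab8a are red and left of 0 in both panels, while Rab31 and Rab35 are red and right of 0 in unwounded cells.

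Among late endosomal members, Rab7 had 230.9, 238.7 and 224.9 CPM (counts scaled to a common library size, with TMM factors) in unwounded total replicates 1 to 3 and 168.8, 175.7 and 171.7 CPM in the cortical ones. Every cortical library lay below every total library, and the log2 difference was -0.43 (SE 0.093, adjusted p = 0.00569, edgeR quasi-likelihood test). Rab24, an atypical Rab linked to autophagy, had 42.4, 38.3 and 41.6 CPM in the total and 25.3, 23.0 and 34.7 CPM in the cortical libraries. Its groups did not overlap either, although cortical replicate 3 lay near the total ones (log2 difference -0.57, SE 0.15, adjusted p = 0.0186). The call was kept in 9 of 12 fits that left out 1 library and in 9 of 12 other alternatives. Rab24 shares 1258 of its 2015 exon bases with Prelid1 on the opposite strand. Since the libraries did not keep the strand, reads of these genes cannot be told apart there. Summed over all libraries, Prelid1 had 128106 counts and Rab24 9201, and the part of Prelid1 reads in the Rab24 counts was not tested. Prelid1 had a log2 difference of -0.32 (adjusted p = 0.0551). Rab29, which acts at lysosomes and the trans-Golgi, had 14.4, 13.5 and 12.02 CPM in the total and 9.38, 7.11 and 8.24 CPM in the cortical libraries. The groups were separate, but the call was kept in only 3 of 12 fits that left out 1 library (log2 difference -0.69, SE 0.22, adjusted p = 0.0445).

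For the early endosome, Rab5c had 231.0, 218.2 and 222.0 CPM in the total and 171.3, 184.3 and 166.0 CPM in the cortical libraries of unwounded cells. The cortical libraries were all lower, by 0.36 on the log2 scale (SE 0.10, adjusted p = 0.0226). The call was kept in 8 of 12 fits that left out 1 library, where the adjusted p reached 0.114, and in 9 of 12 other alternatives, where it reached 0.248. Its scarcer paralogs did not pass the test: Rab5b had 28.3, 20.7 and 22.2 CPM in the total and 29.6, 37.8 and 28.0 CPM in the cortical libraries, which overlapped. Rab5a had 15.1, 13.1 and 10.3 CPM in the total and 9.97, 11.8 and 13.8 CPM in the cortical ones, also overlapping. The log2 differences were 0.42 for Rab5b (adjusted p = 0.0821) and -0.12 for Rab5a (adjusted p = 0.831). Rab31, which moves cargo between the trans-Golgi and endosomes, went the other way, from 77.0, 75.6 and 83.5 CPM in the total to 117.6, 107.3 and 119.5 CPM in the cortical libraries. This was the largest rise among the Rabs that passed, 0.54 on the log2 scale (SE 0.11, adjusted p = 0.00447), and it passed in all 24 alternatives run.

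Recycling Rabs also moved in both directions. Rab25 fell from 517.3, 516.4 and 498.9 CPM in the total to 382.3, 351.7 and 366.5 CPM in the cortical libraries of unwounded cells. The groups were far apart relative to their spread, with a log2 difference of -0.48 (SE 0.11, adjusted p = 0.0062). Rab11a, its relative on the same endosomes, had 157.3, 159.5 and 164.9 CPM in the total and 124.8, 136.0 and 129.7 CPM in the cortical libraries. These did not overlap either, but the difference of -0.30 did not pass (adjusted p = 0.192), and passed without wounded total replicate 1 (adjusted p = 0.00901). Rab11b overlapped between the fractions, with 57.4, 61.3 and 53.2 CPM in the total and 53.9, 60.7 and 54.7 CPM in the cortical libraries. Rab35, which returns cargo quickly from endosomes to the plasma membrane, rose from 35.6, 38.4 and 36.6 CPM to 51.2, 48.6 and 52.8 CPM. The log2 difference of 0.46 (SE 0.14, adjusted p = 0.0354) was kept in 5 of 12 fits that left out 1 library. Rab15 overlapped as well, with 354.4, 393.6 and 355.7 CPM in the total and 396.6, 386.8 and 372.0 CPM in the cortical libraries (adjusted p = 0.774).

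Rab8a, which carries vesicles from the Golgi and recycling endosomes to the plasma membrane and the cilium, had 79.4, 93.0 and 89.1 CPM in unwounded total and 57.4, 63.0 and 51.2 CPM in unwounded cortical libraries. It was lower in every cortical library, with a log2 difference of -0.61 (SE 0.11, adjusted p = 0.00205), the smallest adjusted p of the Rabs in this comparison. Rab8b was scarce and overlapped, with 6.45, 4.46 and 4.48 CPM in the total and 5.63, 3.76 and 3.15 CPM in the cortical libraries (adjusted p = 0.772). Rab2a, the most abundant Rab of the secretory route, had 200, 223.1 and 216.6 CPM in the total and 178.5, 203.2 and 199.1 CPM in the cortical libraries, also overlapping (adjusted p = 0.583). The call count depended on 1 library outside the comparison: without wounded total replicate 1, 14 Rabs were called, 4 higher and 10 lower, beside 22.4% of all genes. With a trend on gene length removed from every library, 3 remained past the threshold, Rab31, Rab35 and Rab8a, beside 10.6% of all genes, while the adjusted p was 0.0772 for Rab25, 0.0677 for Rab7, 0.21 for Rab5c, 0.175 for Rab24 and 0.252 for Rab29.

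In wounded cells, Rab7, Rab9, Rab24, Rab8a, Rab13 and Rab4a were lower in the cortical fraction. These were 6 of 45 members in all, beside 15.7% of all genes, and 6 lower calls stand beside 8.03%; edgeR called 0 higher, beside 7.62%, while DESeq2 called 1 higher and 7 lower, beside 18.6% of all genes, and limma-voom with library weights 3 higher and 11 lower, beside 32.7%. In all, 13 had an unadjusted p under 0.05 in edgeR, and the share of all genes at that threshold was not counted. The median log2 difference was -0.04, against 0.04 over all genes. With library size alone, which moved the median of all genes to 0.25, the median of the Rabs was 0.20 and 6 members were higher and 0 lower, beside 20.1% of all genes (2203 higher and 520 lower). Groups did not overlap for 11 lower and 6 higher members, beside 12.9% and 16.2% of all genes (29.2% in all). Rab7, Rab8a and Rab24 were thus lower in the cortical fraction of both wounded and unwounded cells. These comparisons share no library, but 1 model over all 12 libraries gave both, with a shared estimate of the spread. The share of all genes lower in both was not counted. With the gene length trend removed, Rab8a alone of these was called in both.

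In the late endosomal role 3 of 9 members fell. Rab7 had 224.2, 222.0 and 222.0 CPM in wounded total and 183.4, 190.4 and 162.3 CPM in wounded cortical libraries, and the cortical ones were all lower (log2 difference -0.32, SE 0.093, adjusted p = 0.0291, edgeR quasi-likelihood test). Rab9, which returns receptors from late endosomes to the trans-Golgi, fell from 65.1, 61.4 and 62.3 CPM to 42.2, 42.8 and 52.5 CPM. Its log2 difference was -0.46 (SE 0.12, adjusted p = 0.0156). Rab24 fell from 59.6, 58.9 and 64.5 CPM to 35.4, 39.3 and 48.5 CPM, with a log2 difference of -0.57 (SE 0.15, adjusted p = 0.0163), where the overlapping Prelid1 had -0.14 (adjusted p = 0.412). Rab29, called in unwounded cells, overlapped here, with 9.44, 11.5 and 14.2 CPM in the total and 10.1, 13.9 and 10.3 CPM in the cortical libraries (adjusted p = 0.931).

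Among secretory members, Rab8a fell from 93.4, 83.6 and 83.2 CPM in wounded total to 57.7, 65.0 and 69.2 CPM in wounded cortical libraries. All cortical libraries were lower, by 0.44 on the log2 scale (SE 0.11, adjusted p = 0.0143). Rab13, which delivers proteins to tight junctions, had 33.2, 38.4 and 47.9 CPM in the total and 22.7, 32.5 and 22.6 CPM in the cortical libraries. The groups were separate by a narrow margin, since cortical replicate 2 almost reached total replicate 1 (log2 difference -0.62, SE 0.17, adjusted p = 0.0186). Rab4a, of fast recycling from early endosomes, fell from 27.4, 24.7 and 20.7 CPM to 14.7, 14.3 and 17.0 CPM, with no overlap (log2 difference -0.66, SE 0.18, adjusted p = 0.0209). Rab8b did not pass, with 2.97, 3.59 and 0.981 CPM in the total and 4.16, 4.28 and 6.81 CPM in the cortical libraries (adjusted p = 0.127).

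Several Rabs called in unwounded cells overlapped or came close in wounded ones. Rab25 had 453.9, 559.7 and 580.2 CPM in wounded total and 428.1, 452.8 and 436.5 CPM in wounded cortical libraries, a narrow gap set by total replicate 1 (log2 difference -0.27, adjusted p = 0.0897). Without that library the difference was -0.38 and passed (adjusted p = 0.00165). Rab5c overlapped, with 172.1, 211.2 and 201.3 CPM in the total and 186.8, 205.7 and 200.9 CPM in the cortical libraries (log2 difference 0.02, adjusted p = 0.923). Rab31 had 76.5, 94.2 and 106.6 CPM in the total and 104.2, 110.1 and 110.6 CPM in the cortical libraries (log2 difference 0.23, adjusted p = 0.196), and Rab35 had 40.8, 28.5 and 28.1 against 35.1, 32.7 and 39.0 CPM (log2 difference 0.13, adjusted p = 0.589). The interaction term tests whether the cortical-to-total difference itself changed with wounding. For it edgeR called 0 of 45 Rabs, beside 0.125% of all genes (0.0221% higher and 0.103% lower). DESeq2 also called 0, beside 0.531% of all genes. Rab5c, Rab13 and Rab8b had an unadjusted p under 0.05 there, with adjusted p of 0.411, 0.52 and 0.545. A limma-voom fit with library weights called 1, Rab31 (adjusted p = 0.0432), beside 6.3% of all genes.

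**Figure D3:**
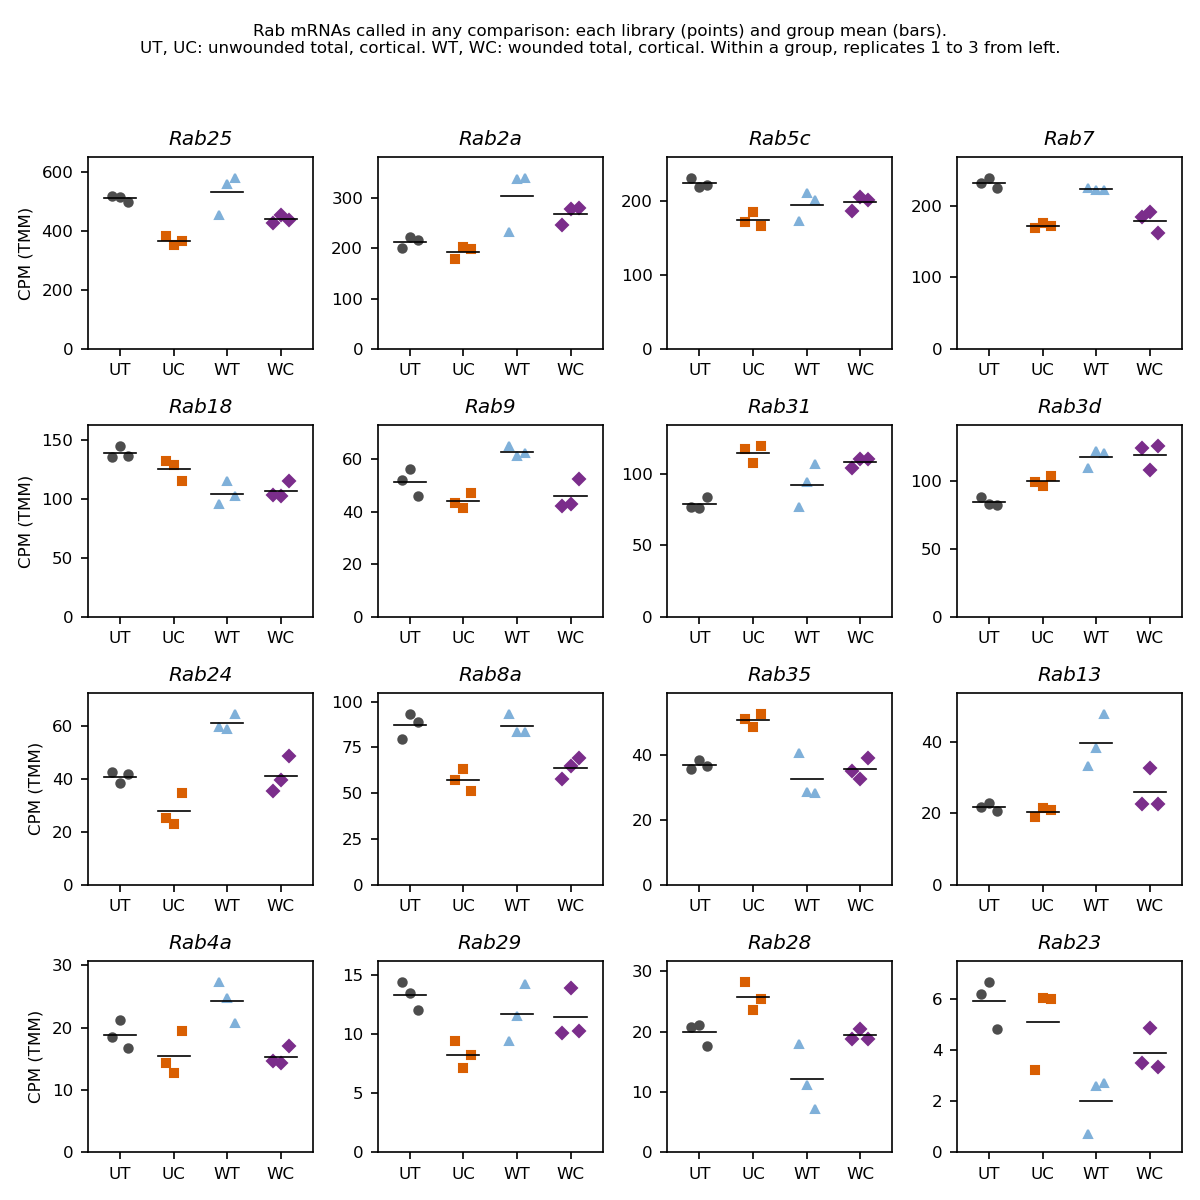
CPM after TMM scaling of the 16 Rabs called in any comparison, with a point per library, a bar per group mean and replicates 1 to 3 from left to right; each axis starts at 0. Cortical libraries of Rab7 and Rab8a lie below the total ones in both unwounded and wounded cells, and wounded total libraries of Rab13 and Rab24 are the highest of their panels.

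The wounded calls also rested on single libraries. Without wounded cortical replicate 1, edgeR called 0 Rabs in this comparison, beside 8.82% of all genes. There 11 Rabs had an unadjusted p under 0.05, and the share of all genes at that threshold was not counted. Fits that left out 1 library kept Rab7 in 8 of 12, Rab24, Rab13 and Rab4a in 9 each, Rab9 in 10 and Rab8a in 11. Without wounded total replicate 1 it called 10, 1 higher and 9 lower, beside 24.7% of all genes. Once the gene length trend was removed, 2 were called, Rab8a and Rab13, beside 10.8% of all genes (365 higher and 1094 lower), while the adjusted p was 0.0669 for Rab7, 0.121 for Rab9, 0.0595 for Rab24 and 0.0905 for Rab4a.

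Gene length, as merged exons in the count table, went with the cortical-to-total difference across Rabs. Coding sequences of the 45 tested Rabs were short, with a median of 642 bases against 1368 bases over 11475 protein-coding genes tested. They ran from 582 to 843 bases apart from Rab44, an atypical large Rab of 2175 bases. Their 3′ untranslated regions had a median of 1514 bases, against 983 bases over those genes. Spearman's rho between gene length and the log2 difference was 0.24 in unwounded and 0.61 in wounded cells over the 45 Rabs, and 0.52 and 0.64 over the 37 with 100 counts or more on average. Over the 11475 genes it was 0.36 and 0.39. For the length of the coding sequence alone, rho was 0.0076 and 0.10 over the Rabs and 0.48 over all these genes in both comparisons. These are descriptions across genes measured in the same libraries, and genes are not independent replicates. Rab8a went against this pattern: its gene length of 4678 bases was above that of Rab25 (1673), Rab24 (2015), Rab5c (2194) and Rab7 (2610), and it was lower in the cortical fraction all the same. Rab31 (3813) and Rab35 (2820) were higher.

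**Figure D4:**
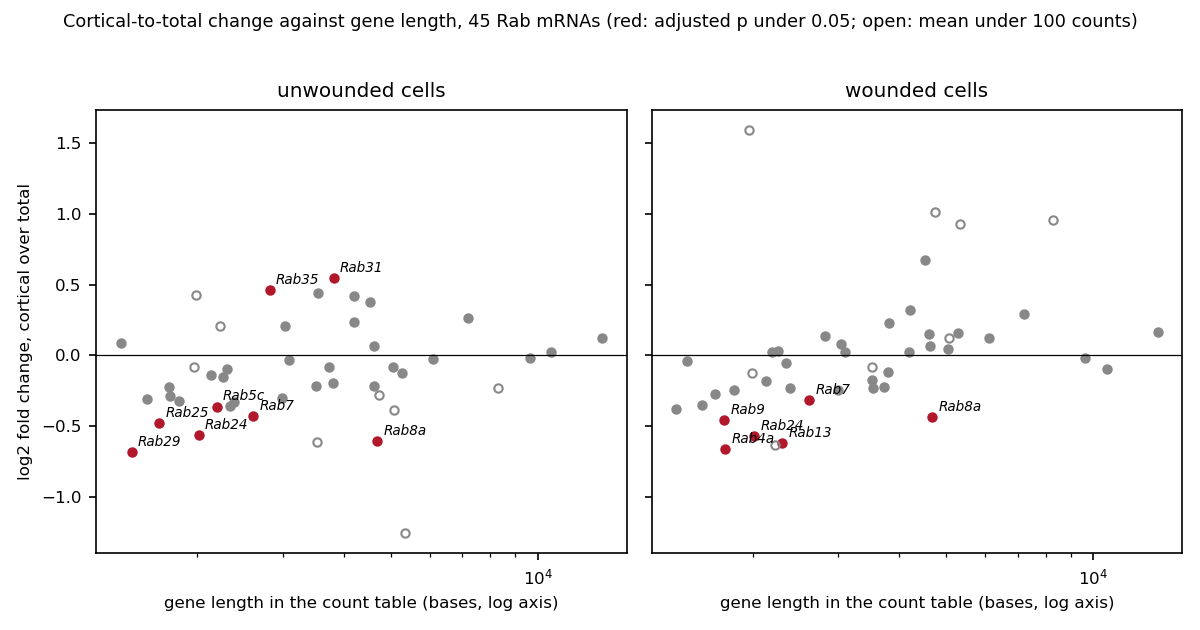
Log2 fold change of the cortical over the total fraction against gene length in bases (log axis) for the 45 tested Rabs, in unwounded and wounded cells; red marks an adjusted p under 0.05 and open points a mean under 100 counts. Most called Rabs that were lower are short genes, and Rab8a, of 4678 bases, is the longest called one.

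In the total fraction, 7 of 45 tested Rabs (15.6%) were called after wounding, a share close to that of all genes. Rab2a, Rab3d, Rab13 and Rab24 were higher and Rab18, Rab23 and Rab28 lower, beside 15.6% of all genes called, 8.39% higher and 7.2% lower. This comparison shares its unwounded total libraries with the first and its wounded total libraries with the second. The median log2 difference was 0.03, against -0.03 over all genes, and it turned to -0.05 with library size alone, which moved the median of all genes to -0.11 and gave 3 Rabs higher and 2 lower, beside 13.4% of all genes. RLE scaling gave 5 higher and 2 lower, beside 16.2%. Groups did not overlap for 8 higher and 6 lower members, beside 14.5% and 17.6% of all genes (32.1% in all). By role, secretory Rabs gave 2 higher calls of 9, the late endosomal role 1 higher of 9, ER and Golgi 1 higher and 1 lower of 8, and the ciliary and other Rabs 2 lower of 4.

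Rab13 changed most among the higher ones, from 21.8, 22.8 and 20.6 CPM in unwounded total to 33.2, 38.4 and 47.9 CPM in wounded total libraries. The groups were well apart (log2 difference 0.87, SE 0.17, adjusted p = 0.00218, edgeR quasi-likelihood test), and the call held in all 24 alternatives run. Rab3d, of regulated secretion, rose from 88.8, 83.2 and 82.9 CPM to 109.7, 122.9 and 120.8 CPM, and held in the same 24 (log2 difference 0.47, SE 0.097, adjusted p = 0.00349). Rab2a rose from 200, 223.1 and 216.6 CPM to 233.7, 338.2 and 340.6 CPM, with wounded replicate 1 well below the other replicates (log2 difference 0.51, SE 0.13, adjusted p = 0.0139). Rab24 rose from 42.4, 38.3 and 41.6 CPM to 59.6, 58.9 and 64.5 CPM (log2 difference 0.58, SE 0.15, adjusted p = 0.0145). Prelid1, on the opposite strand, had -0.09 in this comparison (SE 0.11, adjusted p = 0.63), and its part in the Rab24 counts was not tested.

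Rab18, of the ER and lipid droplets, fell from 135.5, 144.7 and 136.1 CPM in unwounded total to 95.3, 115.1 and 101.9 CPM in wounded total libraries, with no overlap (log2 difference -0.42, SE 0.10, adjusted p = 0.0115). Rab23, a ciliary Rab that restrains Hedgehog signalling, was rare and fell from 6.19, 6.66 and 4.83 CPM to 0.712, 2.58 and 2.70 CPM. Its log2 difference of -1.56 (SE 0.44, adjusted p = 0.0234) was the largest of any called Rab, and was -1.16 without wounded total replicate 1. Rab28, also of cilia, had 20.8, 21.2 and 17.7 CPM and then 18.0, 11.2 and 7.23 CPM, and wounded replicate 1 fell among the unwounded libraries. Its call (log2 difference -0.71, SE 0.23, adjusted p = 0.0494) was kept in 1 of 12 fits that left out 1 library, the one without that replicate (-1.10, adjusted p = 0.000132). Without wounded total replicate 1, 15 Rabs were called, 9 higher and 6 lower, beside 24.9% of all genes. Rab25, Rab7 and Rab8a did not pass in the total fraction, with log2 differences of 0.06 (adjusted p = 0.783), -0.06 (adjusted p = 0.753) and -0.01 (adjusted p = 0.977). The 3 Rabs that fell, Rab18, Rab23 and Rab28, are all among the 8 tested members with 1 cysteine codon at the carboxyl end, as is Rab13, which rose; this was noticed after the values were seen. The median log2 difference over those 8 was -0.27 and over the 37 with 2 cysteine codons 0.06, beside -0.03 over all genes. The grouping was drawn from these same values, so the medians only describe them and are no separate support for it. For the cortical against the total fraction the medians were -0.19 and -0.12 in unwounded cells and 0.03 and -0.06 in wounded cells.

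In the cortical fraction, edgeR called 0 of 45 Rabs after wounding, beside 2.48% of all genes (1.6% higher and 0.884% lower). There 8 Rabs had an unadjusted p under 0.05, and the share of all genes at that threshold was not counted. DESeq2 called 4 Rabs, beside 5.42% of all genes, and limma-voom with library weights 6, beside 9.7%. This comparison shares its libraries with the cortical sides of the first and second. The median log2 difference was 0.10, against 0.02 over all genes. Groups did not overlap for 12 higher and 4 lower members, beside 15.4% and 11.5% of all genes (26.9% in all). The 4 called by DESeq2 were Rab10, Rab2a and Rab24, higher, and Rab35, lower. In edgeR, Rab24 had 25.3, 23.0 and 34.7 CPM in unwounded cortical and 35.4, 39.3 and 48.5 CPM in wounded cortical libraries (log2 difference 0.58, adjusted p = 0.0557). Rab35 had 51.2, 48.6 and 52.8 CPM and then 35.1, 32.7 and 39.0 CPM (log2 difference -0.51, adjusted p = 0.0622), and Rab2a had 178.5, 203.2 and 199.1 CPM and then 247.5, 277.8 and 281.0 CPM (log2 difference 0.47, adjusted p = 0.063). The unwounded and wounded libraries did not overlap for any of these 3, though they missed the threshold. Without wounded total replicate 1, which is in neither group, 5 were called (4 higher and 1 lower), beside 9.07% of all genes.

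**Figure D5:**
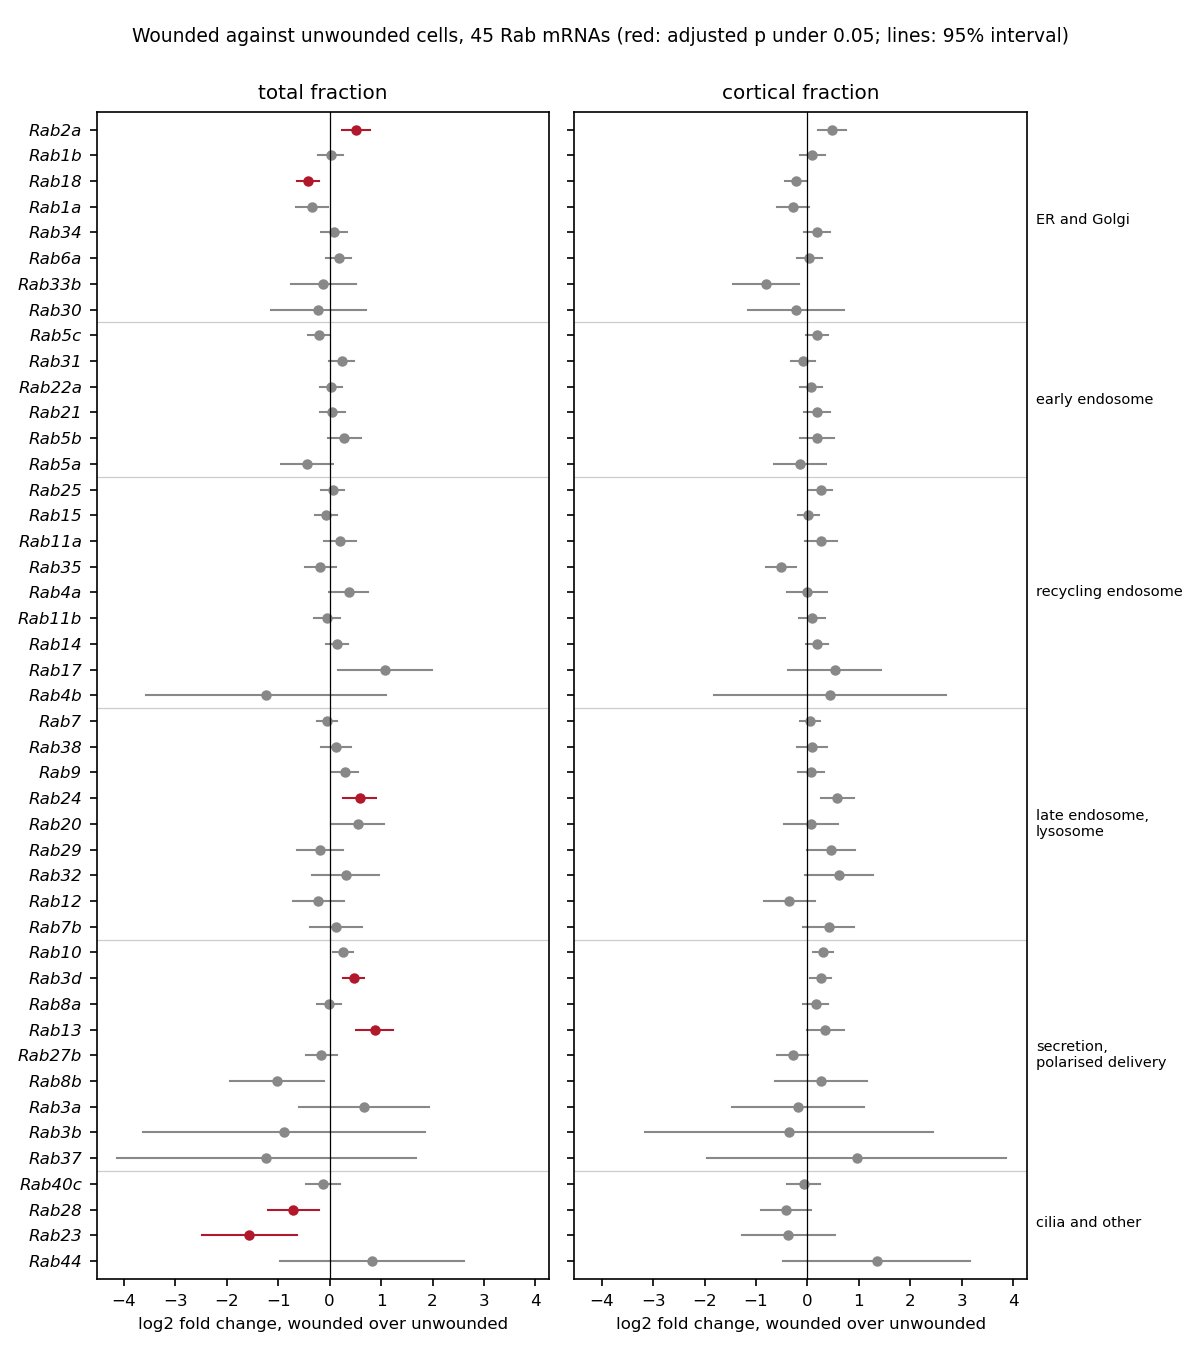
Log2 fold change of wounded over unwounded cells for the 45 tested Rabs in the total and cortical fractions, grouped by role, with 95% intervals; red marks an adjusted p under 0.05. Rab13, Rab24, Rab2a and Rab3d are red and right of 0 in the total fraction, Rab18, Rab23 and Rab28 are red and left of 0, and no point is red in the cortical fraction.

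Among regulators of Rabs in the cortical fraction of unwounded cells, GTPase-activating proteins were called in 25.7% of 35 tested, exchange factors in 23.1% of 39, effectors in 7.69% of 39 and prenylation and escort genes in 0% of 8, beside 14.2% of all genes (6.62% higher and 7.59% lower). Of the 35 tested GTPase-activating proteins, which switch Rabs off, 8 were higher and 1 lower, with a median log2 difference of 0.21. Usp6nl, which acts on Rab5, was higher by 0.84 (adjusted p = 0.000212, edgeR quasi-likelihood test), Rab3gap2 by 0.58 and Evi5l by 0.56, while Tbc1d7 had -0.98 (adjusted p = 0.00915). Of 39 exchange factors, which switch Rabs on, 5 were higher and 4 lower (median 0.13). Madd, which activates Rab3 and Rab27 proteins, was higher by 0.93, Trappc10 by 0.78, Sbf1 by 0.72 and Rabgef1, an activator of Rab5, by 0.65. The 4 lower ones, named after their values were seen, were Trappc3, Trappc4, Trappc5 and Trappc6a, small subunits of the TRAPP tethering complexes. Of 39 effectors, proteins that bind active Rabs, 3 were higher and 0 lower (median 0.15): Golga2, a Golgi tether, by 0.63, Rab11fip1, which binds Rab11 and Rab25, by 0.62, and the motor Myo5a by 0.43. Among 8 genes for prenylation and escort of Rab proteins edgeR called 0, with 2 at an unadjusted p under 0.05. DESeq2 also called 0 of them, beside 16.4% of all genes. With the gene length trend removed, 3 GTPase-activating proteins were higher and 1 lower, and 4 exchange factors were higher and 1 lower, beside 10.6% of all genes. With wounded total replicate 1 left out, beside 22.4% of all genes, 8 exchange factors were higher and 6 lower, 5 effectors higher and 0 lower, and 1 prenylation and escort gene higher and 2 lower.

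In wounded cells the same lists gave 6 higher and 0 lower calls for GTPase-activating proteins, 7 and 3 for exchange factors and 2 and 2 for effectors. These are 17.1% of 35, 25.6% of 39 and 10.3% of 39 tested, beside 15.7% of all genes (7.62% higher and 8.03% lower). Usp6nl was again higher in the cortical fraction, by 0.49 (adjusted p = 0.00751), Tbc1d16 by 1.90, Tbc1d2b by 0.60 and Rabgap1 by 0.53. Dennd4c was higher by 1.26, Sbf2 by 0.84 and Dennd5a by 0.79, and Trappc5 was lower (-0.77, adjusted p = 0.00199). Erc1 (1.41) and Plekhm1, a lysosomal effector of Rab7 (0.75), were higher, and Rabep2 (-0.89) and Sytl1 (-0.40) lower. For prenylation and escort, 1 of 8 was higher, the escort protein gene Chml (1.03), and 2 were lower, Rabac1 (-0.68), a Rab acceptor of the Golgi, and Gdi2 (-0.29), which extracts Rabs from membranes. With the gene length trend removed, 1 GTPase-activating protein was higher and 0 lower, and 1 exchange factor was higher and 2 lower, beside 10.8% of all genes. With wounded total replicate 1 left out, beside 24.7%, 9 GTPase-activating proteins were higher and 1 lower, and 5 effectors higher and 2 lower.

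After wounding, the total fraction gave 7 higher and 0 lower calls among effectors, 5 and 1 among GTPase-activating proteins, 4 and 4 among exchange factors and 2 and 1 among prenylation and escort genes. These are 17.9%, 17.1%, 20.5% and 37.5% of 39, 35, 39 and 8 tested, beside 15.6% of all genes (8.39% higher and 7.2% lower). After the trend on gene length was taken out, which called 19% of all genes (1909 up and 664 down), 10 GTPase-activating proteins were higher and 1 lower, 7 exchange factors higher and 1 lower, and 9 effectors higher and 0 lower. Leaving out wounded total replicate 1, which gave calls for 24.9% of all genes, 7 effectors were higher and 2 lower, 8 GTPase-activating proteins higher and 0 lower, 6 exchange factors higher and 3 lower, and 2 prenylation and escort genes higher and 3 lower. Ehbp1l1, an effector of Rab8 (1.49), Golga2 (1.01, adjusted p = 6.74e-05), Rab11fip1 (0.98, adjusted p = 5.13e-05) and Sytl1, an effector of Rab27 (0.96), rose. Madd (0.98) and Trappc9 (0.77) rose and Ankrd27 (-0.86) and Dennd5a (-0.77) fell. Rab3gap2 (0.91), Tbc1d17 (0.87) and Evi5l (0.74) rose and Tbc1d16 (-1.69) fell. Gdi2 (0.41) and Rabac1 (0.64) rose and Chml (-1.34) fell. These genes, and Tbc1d16, Dennd5a and Sytl1, had the opposite sign in the wounded cortical-to-total comparison. That comparison uses the same wounded total libraries, so the results for these genes are not independent. In the cortical fraction, where 0 Rabs passed, edgeR called 3 of 39 effectors (7.69%), all higher. It called 1 of 35 GTPase-activating proteins (2.86%), lower, and 0 of 8 prenylation and escort genes. These stand beside 2.48% of all genes (1.6% higher and 0.884% lower). The effectors were Unc13d, which primes granules (0.79), Micall2, an effector of Rab13 (0.59, edgeR adjusted p = 0.00706), and Golga2 (0.54). The GTPase-activating protein was Tbc1d25 (-0.96, edgeR adjusted p = 0.00838). Among exchange factors edgeR called 0 of 39 there, with 5 at an unadjusted p under 0.05. DESeq2 called 1 exchange factor, lower, beside 5.42% of all genes. Without wounded total replicate 1, 8 effectors were higher and 1 lower in this comparison, beside 9.07% of all genes.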

How the data were processed

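The authors deposited raw counts of fragments per gene and a table of FPKM values, per the file headers. The FPKM of well-counted genes equalled the count divided by gene length and by 1 effective size per library, which was 0.825 to 1.10 of its total count. Genes of low counts were left out of this check. The submitters' processing notes name CASAVA, HISAT2 and mm10. The counting tool and annotation were not given in the sources used here, so reads of paralogs and pseudogenes are uncertain. Groups and replicate numbers came from the sample titles. 0 sample columns were unused. The tests ran in edgeR 4.0.16 under R 4.3.3 (filterByExpr, TMM factors of 0.831 to 1.10, 1 quasi-likelihood model over all 12 libraries, two-sided F tests). P-values were adjusted by Benjamini-Hochberg over 13571 genes for each of 5 contrasts at 0.05. Counts at an unadjusted p under 0.05 have no share of all genes beside them, so no excess can be read from them. CPM values used TMM. Alternatives were RLE and library size scaling, genes of 50 counts or more on average, no filter, DESeq2 1.42.0, voom with quality weights and limma-trend (limma 3.58.1) on log2 FPKM plus 1 or 0.1. The rest were a loess length trend (span 0.5), the replicate block, only the groups compared, and leaving out each library. Figures used matplotlib 3.10.9. On simulated data for the unwounded cortical against total comparison (13225 genes), edgeR recovered 77% of changed genes with 4.35% of calls false, and DESeq2 81.5% with 13.3% false. The changes planted there were larger than those of most called Rabs, so these shares do not carry over to them. Where a gene length bias was the only simulated difference (13149 genes), uncorrected edgeR made 663 calls, all false, and 0 with the length trend removed. That bias was put in along the same gene length that the trend removes, so the outcome was set beforehand. It checked the code only and says nothing about the Rab calls. Coding sequences came from GENCODE M21 (GRCm38), which matched the coordinates of 57 of 59 members. The libraries were not directional, so reads where genes overlap on opposite strands cannot be assigned by strand. How such reads were counted is not known. By span, 10 of 59 members overlapped a gene, on either strand, with at least 10% of the counts of the member. Of these members, Rab24 alone was called. The members, role lists, pathway lists and rule were chosen with earlier results of these data known. Members were described in every library if called, among the 5 of highest mean FPKM, or paralogs of a called member, and from each pathway list up to 4 called genes of largest change per comparison were named.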

Additional observations from a re-analysis of the deposited data

Results flagged for a closer look

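Relatives of Rab genes outside the protein-coding members also had reads. The antisense gene Rab10os reached 203 counts in a library (lowest 70), beside 1243 to 3950 counts for Rab10 on the other strand. The antisense gene Rab26os reached 131 counts (lowest 28), whereas Rab26 itself had at most 1. The processed pseudogene Rab11b-ps2 reached 101 counts (lowest 7), beside 538 to 1387 for Rab11b, and Rab7-ps1 reached 69 (lowest 3), beside 1688 to 5263 for Rab7. Rab9b-ps1 had 6 counts in 1 library and Rab9b had 0 in all 12. Rab5a-ps reached 1 count, under the limit that a count of 0 allows. The share of reads moved between genes and their copies was not tested.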

How the results depend on the processing

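None of the 21 calls named for Rabs turned direction in any of the 24 alternatives run for each. Counts of called Rabs are given in the order unwounded cortical to total, wounded cortical to total, wounding in the total fraction and wounding in the cortical fraction (main values 8, 6, 7 and 0). They were 15, 14, 19 and 6 with voom weights (beside 27.3%, 32.7%, 38.4% and 9.7% of all genes), which also called 1 in the interaction (beside 6.3%), and 13, 2, 3 and 8 with only the groups compared (beside 23.7%, 7.66%, 9.25% and 11.3%). With the length trend removed the counts were 3, 2 and, for wounding in the cortical fraction, 1 (beside 10.6%, 10.8% and 3.37%), and with the replicate block added 3, 3 and 1 (beside 9.96%, 10.1% and 2.93%). Wounding in the cortical fraction gave 1 with library size alone (beside 1.47%), 3 with no filter (2.59%), 3 at 50 mean counts or more (4.35%) and 4 with DESeq2 (5.42%). Leaving out 1 library gave 4 to 14, 0 to 10, 4 to 15 and 0 to 5 calls. Medians turned to 0.05, 0.196 and -0.0521 in the first 3 comparisons with library size alone. The median for wounding in the total fraction was 0.1221 with the length trend removed, 0.1244 with the block added, and -0.0076 to 0.041 with 1 library left out. For wounded cortical to total it ran from -0.1482 to -0.0335. Ratios of summed Rab level, in the same order, were 0.899 and 0.933 in CPM for the first pair, and 1.02, 1.09, 0.987 and 1.05 as a percentage of all counts, and 0.969, 1.04 and 0.999 for the first 3 per kilobase and total count, both measures added after seeing the data. The cause of these shifts was not tested.

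Same-numbered libraries did not deviate together (12 correlations from -0.0331 to 0.0913, 0 over 0.1), so the numbers were not used as pairs. With the replicate block, 7, 7, 7 and 2 Rabs were called (beside 13.7%, 14.6%, 15% and 2.03%). Depth limits Rab23, Rab8b and other Rabs of few counts.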
